A study of Mus musculus with 32 samples.

Results

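Expression at 12 h and 24 h of RAD21 degradation was compared across all genes of E14 mouse embryonic stem cells whose mean normalised count was at least 10 over 6 libraries, which were 13738 of the 14277 genes listed. RAD21 is the kleisin subunit that closes the cohesin ring around DNA. Cohesin extrudes chromatin loops until it meets CTCF bound to DNA, and it also holds sister chromatids together until mitosis. The cells, labelled RAD21 AID, carry RAD21 with an auxin-inducible degron (AID), a tag that lets an auxin trigger destruction of the protein. They received 1 uM of the auxin analogue 5-Ph-IAA for 12 h or 24 h, and 2 libraries without it, labelled 0 h, give the starting level. Each time had 2 libraries (n = 2 throughout), and the labels do not say whether these came from separate cultures, so p-values measure only the spread between these libraries, which may be technical. All groups share the RAD21 AID genotype, the E14 line and a serum-free medium with LIF and inhibitors of MEK (PD0325901) and GSK3 (CHIR99021). The labels give no untagged cells treated with 5-Ph-IAA and no untreated cells collected at 12 h or 24 h, so effects of the compound or of time in culture cannot be told apart from loss of RAD21. RNA levels also cannot show whether the tagged protein was gone. The whole series holds 32 libraries in 16 groups. Of these, 6 libraries of CTCF AID cells are used below for comparison. They were untreated (0 h) or had 12 h or 24 h of 500 uM indole-3-acetic acid, with 2 libraries each.

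After scaling, the 6 libraries had similar totals, which do not show raw depth. The share of mitochondrial transcripts differed between the times, as given below. Totals of normalised counts lay between 17700427 and 18023866, 14244 to 14259 genes were above 0, and pairs at the same time correlated across genes with r of 0.985 or 0.986. The 9 embryonic stem cell markers were all listed. Their summed level was 111195 to 112723 at 0 h, 106510 to 106711 at 12 h and 110770 to 110828 at 24 h. Between 12 h and 24 h, 4 of them were called higher and 1 lower. Markers of other cells were listed at lower levels. Neural markers, 4 of 6 listed, summed to 2607 to 2876 at 12 h and 2314 to 2388 at 24 h, with 1 called lower, and trophoblast markers, 4 of 7 listed, to 1038 to 1055 and 977 to 1046, with 1 called higher and 1 lower. The part of such cells in the results was not tested. The fibroblast genes Col1a2, Col3a1, Postn, Lum and Dcn were not analysed here, and the other 3 fibroblast markers summed to at most 216 in any library. The endoderm marker Sox7, the trophoblast markers Cdx2, Elf5 and Hand1 and the mesoderm markers T, Mesp1 and Tbx6 were also not analysed here. Because these are bulk libraries scaled to a common depth, a change in the share of one kind of cell and a change of RNA per cell cannot be told apart.

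Several groups of genes moved between 12 h and 24 h, and short stretches of promoters from some of their members are shown first. The stretches were picked because they hold a motif known for the group, and regulation through it was not tested. Many germline genes are kept silent in stem cells by DNA methylation and by repressors that include the E2F6 and MGA complexes. E-boxes, read as CACGTG, are common in their promoters. Genes of the integrated stress response are driven by ATF4, which binds CARE elements, written here as TGATGNAA. Of the 13738 genes, 10338 had a promoter in the RefSeq table (GRCm38.p6, the patch level of the build mm10 named in the submitters' processing notes), 250 bases before to 50 bases after the start. Both strands were searched. An E-box was found in 13 of 26 germline promoters (50%) against 10.5% of all promoters. A CARE was found in 8 of 25 integrated stress response promoters (32.0%) and in 5 of 13 aminoacyl-tRNA synthetase promoters (38.5%) against 2.13% of all. Among promoters of all genes called higher at 24 h the CARE share was 3.89%, and among those called lower it was 1.98%. The stretches below, each 80 bases, come from members whose level differed between 12 h and 24 h, run 5′ to 3′ along the gene, and carry the motif in capitals. The first 4 are germline genes with an E-box, and the others are stress response or synthetase genes with a CARE, in either orientation.
Slc25a31 (chr3:40708742-40708821, plus strand): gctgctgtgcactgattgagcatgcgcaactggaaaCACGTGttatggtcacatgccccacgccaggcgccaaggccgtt
Mael (chr1:166238915-166238994, minus strand): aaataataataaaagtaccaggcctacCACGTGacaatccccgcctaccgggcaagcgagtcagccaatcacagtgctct
Sycp1 (chr3:102936151-102936230, minus strand): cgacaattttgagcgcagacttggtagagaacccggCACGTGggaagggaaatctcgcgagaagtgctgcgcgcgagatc
Mov10l1 (chr15:88982744-88982823, plus strand): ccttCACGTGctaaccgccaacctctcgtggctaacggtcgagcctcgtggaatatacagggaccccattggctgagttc
Nupr1 (chr7:126625537-126625616, minus strand): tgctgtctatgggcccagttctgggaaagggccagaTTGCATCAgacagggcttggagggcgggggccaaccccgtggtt
Pycr1 (chr11:120643808-120643887, minus strand): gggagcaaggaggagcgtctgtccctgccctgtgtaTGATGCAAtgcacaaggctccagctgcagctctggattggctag
Asns (chr6:7693189-7693268, minus strand): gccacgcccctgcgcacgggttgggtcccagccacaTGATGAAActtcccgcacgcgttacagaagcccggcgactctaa
Gars (chr6:55037935-55038014, plus strand): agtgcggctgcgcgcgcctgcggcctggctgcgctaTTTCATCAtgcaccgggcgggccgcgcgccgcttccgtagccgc
A match of letters is a description of the sequence and shows no binding. Whether germline genes with and without the E-box differ in response was not tested. Of the 13 with an E-box, 4 were lower at 24 h than at 12 h and 0 higher, with a median log2 difference of -0.46. Of the 13 without one, 5 were lower and 2 higher, with a median of -0.49. For 12 h against the mean of 0 h and 24 h, the median was 0.62 with an E-box and 0.42 without. Among stress response genes the median was 0.35 for the 8 with a CARE, 4 of them higher at 24 h, and 0.20 for the 17 without, 12 of them higher and 2 lower.

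Between 12 h and 24 h, 2189 genes changed (15.9% of those tested), 1054 upward (7.67%) and 1135 downward (8.26%), by limma on log2(value + 1), with Benjamini-Hochberg adjustment over every tested gene and a threshold of 0.05. Most of the changes were small. The median size was 0.40 on the log2 scale (1.32-fold) among rises and 0.33 (1.26-fold) among falls, and 71.5% and 81.0% of them were under 1.5-fold. At least 2-fold changes numbered 93 upward and 73 downward. The 2 libraries of one time lay entirely above the 2 of the other for all 2189 called genes and for 60.1% of all genes tested. Calls were more frequent among abundant genes, at 3.62% of the 3588 genes with a mean of 10 to 100, 12.5% of 6048 genes of middle level and 31.7% of the 4102 most abundant genes, so a small change was more readily called there. Genes that fell spanned a median of 17.1 kb and genes that rose 29.9 kb, beside 21.9 kb for all tested genes. The fit lets the spread between libraries depend on the level of a gene, and without that trend 463 genes were called, 245 of them rises. Most of the calls were not kept in each of 6 fits that left out 1 library. Of 194 results on named genes, 124 lost the call without the trend, and such losses are given below for some genes only.

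The 0 h libraries show where the called genes started relative to their 12 h and 24 h levels. For most of them the start lay between the 2 levels. Of the 1054 genes that rose, the 0 h mean was nearer the 24 h mean for 545 (51.7%). Of the 1135 that fell, it was nearer the 24 h mean for 507 (44.7%). In finer classes, 16.6% of the rising genes started at or below their 12 h level and 19.4% started at or above their 24 h level. The start lay between, nearer 12 h, for 31.7% and between, nearer 24 h, for 32.3%. Among the falling genes, 19% started at or above the 12 h level and 13.4% at or below the 24 h level. For 36.3% the start lay between, nearer 12 h, and for 31.3% between, nearer 24 h. These classes describe means of 2 libraries and were not tested gene by gene.

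**Figure D1:**
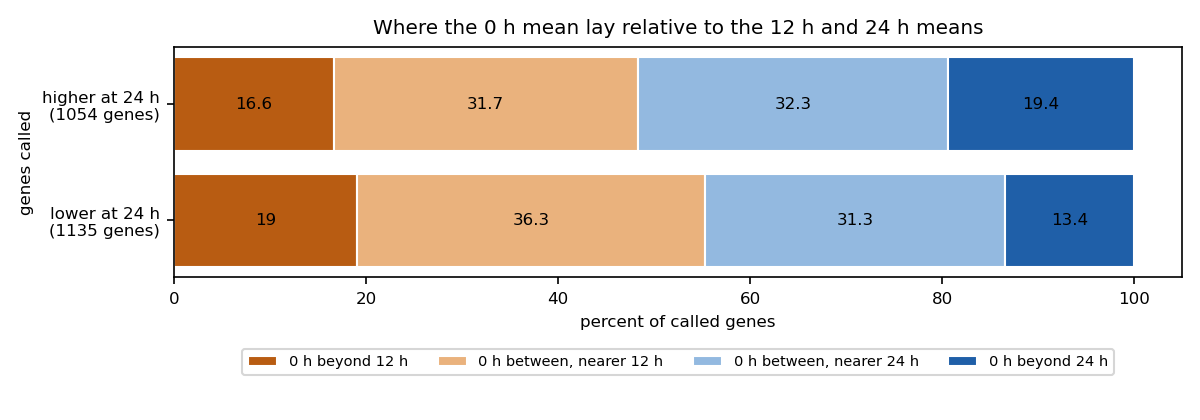
Percent of the genes called between 24 h and 12 h (x axis) by where their 0 h mean lay relative to the 12 h and 24 h means, for 1054 genes higher and 1135 genes lower at 24 h (y axis). No class holds most of the genes in either bar, and 51.7% of the rising and 44.7% of the falling genes started nearer their 24 h level.

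The cohesin genes themselves moved little. Rad21 was 4076 and 4194 at 12 h and 4255 and 4131 at 24 h, beside 4418 and 4259 at 0 h, which differ by 0.02 ± 0.04 on the log2 scale (SE, adjusted p = 0.76 by limma). The tag destroys protein, so the transcript does not test the degradation. Of 18 cohesin and CTCF genes, 2 rose and 3 fell. Smc1a, the partner of SMC3 in the ring, rose from 3480 and 3632 to 4355 and 4219, close to its 0 h values of 3999 and 4087, by 0.27 ± 0.04 (adjusted p = 0.0058). Wapl, the factor that releases cohesin from DNA, rose by 0.15 ± 0.03 (adjusted p = 0.029). The securin gene Pttg1 fell by 0.29 ± 0.05 (adjusted p = 0.013), and Cdca5, which encodes the cohesion protector sororin, fell by 0.30 ± 0.05 (adjusted p = 0.013). Ctcf fell by 0.26 ± 0.04 (adjusted p = 0.0058), from 3998 and 3834 to 3292 and 3244, with 0 h at 3536 and 3541, and its exons overlap those of Agrp and Gm5914 on the opposite strand, so strand use in counting, which is not stated, matters there. Calls of Wapl, Cdca5 and Pttg1 were not kept in every fit without 1 library, and without the mean-variance trend none of the 5 passed (adjusted p of 0.062 to 0.17). The values of Smc3, Stag1, Stag2, Nipbl and Pds5a differed by at most 0.11 and did not pass. Without the first 12 h library Stag2 passed at 0.32 (adjusted p = 0.037), and without the second it was -0.13. After quantile normalisation Nipbl passed at 0.15 (adjusted p = 0.049).

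The largest rises from 12 h to 24 h that met the naming rule (called, mean of at least 100 at the higher time, libraries apart, 12 genes a direction) belonged to genes of unrelated function. Zfp101, a zinc finger gene, was 76.5 and 62.5 at 12 h and 499.9 and 251.6 at 24 h, beside 84.9 and 66.4 at 0 h. Both 24 h libraries stand above all others, but they differ from each other by a wide margin. The difference was 2.34 ± 0.32 on the log2 scale, 5.07-fold (adjusted p = 0.0051), and without the mean-variance trend it missed the threshold (adjusted p = 0.056). Rpain, which carries replication protein A into the nucleus, rose from 66.4 and 59.1 to 279 and 203, by 1.91 ± 0.20 (adjusted p = 0.0017), with 97.4 and 91.0 at 0 h. Atxn1, the gene of the transcriptional repressor ataxin-1, was 103 and 99.97 at 12 h, 95.3 and 88.7 at 0 h, and 246 and 356 at 24 h, a rise of 1.53 ± 0.20 (adjusted p = 0.0041), with the 0 h and 12 h libraries close together. Its exons overlap those of Gmpr on the opposite strand. Cyp39a1, an oxysterol hydroxylase of bile acid synthesis, went from 48.8 and 64.0 to 164 and 175, by 1.58 ± 0.21 (adjusted p = 0.0048). Ap5z1, a subunit of the AP-5 adaptor of endosomes, rose by 1.41 ± 0.19 (adjusted p = 0.0045) from 104 and 88.0 to 220.2 and 294, having fallen from 178 and 202 at 0 h. The calls of Rpain, Atxn1 and Ap5z1 held in all 16 alternatives tried, and that of Cyp39a1 in the 15 that include it.

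The calls of the other rises did not hold in every fit without 1 library. Mms19, which delivers iron-sulphur clusters to DNA repair enzymes, was 1016 and 1045 at 12 h and 5074 and 2099 at 24 h, a rise of 1.66 ± 0.34 (adjusted p = 0.020). Without the first 24 h library the rise was 1.03, and without either 12 h library the call was lost at adjusted p of 0.092 and 0.094. Its exons overlap Zdhhc16 on the opposite strand. Unc13d, needed for release of cytotoxic granules, rose by 1.7 ± 0.39 (adjusted p = 0.028), and by 1.09 without the first 12 h library (adjusted p = 0.070), and Prrg1, a gamma-carboxyglutamate protein gene, rose by 1.88 ± 0.34 (adjusted p = 0.014). Ppp1r13l, the gene of the p53 inhibitor iASPP, was 106 and 126 at 12 h, 496 and 450 at 24 h and 129.8 and 286 at 0 h. It rose by 2.02 ± 0.33 (adjusted p = 0.0093). Lrrc61, Arsg and Gng2 complete the 12, with differences of 1.69, 1.62 and 1.41, and their exons overlap Rarres2, Slc16a6 and Gm48283 on the opposite strand. The calls of all of Ppp1r13l, Prrg1, Unc13d, Lrrc61, Arsg and Gng2 were lost without at least 1 of the 12 h or 24 h libraries, at adjusted p up to 0.12.

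The falls were led by Tuba3b, a testis alpha-tubulin gene. It was 327 and 355 at 12 h, against 75.7 and 86.6 at 0 h and 66.2 and 81.2 at 24 h, a fall of 2.20 ± 0.17 on the log2 scale, 4.6-fold (adjusted p = 0.00057). Both 12 h libraries stand far above the other 4, which overlap each other. Tuba3b has a near-identical paralog, Tuba3a, and how the authors split reads between them is not stated. Slc25a31, the germ cell ADP/ATP carrier of mitochondria, followed the same course, 55.2 and 61.8 at 0 h, 225 and 206 at 12 h and 66.2 and 65.3 at 24 h, a fall of 1.7 ± 0.17 (adjusted p = 0.0016). Eri3, a 3′ exonuclease gene, fell from 1038 and 1590 to 460.2 and 508, beside 400.1 and 454 at 0 h, by 1.41 ± 0.19 (adjusted p = 0.0047). Prmt8 and H1f10 fell below their starting level instead. Prmt8, a membrane-bound arginine methyltransferase gene, was 299.9 and 301 at 12 h, 225 and 253 at 0 h and 110.2 and 101 at 24 h, a fall of 1.5 ± 0.13 (adjusted p = 0.00081). H1f10, a linker histone gene, was 211 and 232 at 12 h, 192 and 212 at 0 h and 90.7 and 93.3 at 24 h, a fall of 1.26 ± 0.14 (adjusted p = 0.0022). Their exons overlap Gm42738 and Gm5577, respectively, on the opposite strand, and those of H1f10 also overlap Gm47286 on the same strand, so its level is uncertain. Prrt3 also ended below its start, with 119 and 110.1 at 12 h, 123 and 113 at 0 h and 28.1 and 54.1 at 24 h.

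The calls of Tuba3b, Slc25a31, Prmt8 and H1f10 held in all 16 alternatives, and those of Hal and Eri3 were lost without the mean-variance trend. Hal, which encodes the histidine-degrading enzyme histidase, fell by 1.69 ± 0.24 (adjusted p = 0.0059), and Epb41l3, a membrane skeleton gene, by 1.54 ± 0.26 (adjusted p = 0.011). Tanc2, a synaptic scaffold gene, fell by 1.99 ± 0.41 (adjusted p = 0.020) from 91.0 and 187 to 24.9 and 41.5, and by 1.47 without the second 12 h library (adjusted p = 0.10). Fat2, Crim1 and Ppp1r14d fell by 1.35, 1.26 and 1.25. Tanc2, Epb41l3, Prrt3, Fat2, Crim1 and Ppp1r14d each lost the call without at least 1 library. Neighbouring genes are given beside the 7.67% of all tested genes that rose and the 8.26% that fell, with no test. Within 100 kb of the 12 rising genes, 2 of 56 tested neighbours rose (3.57%) and 4 fell, and within 100 kb of the 12 falling genes, 3 of 33 fell (9.09%) and 0 rose.

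**Figure D2:**
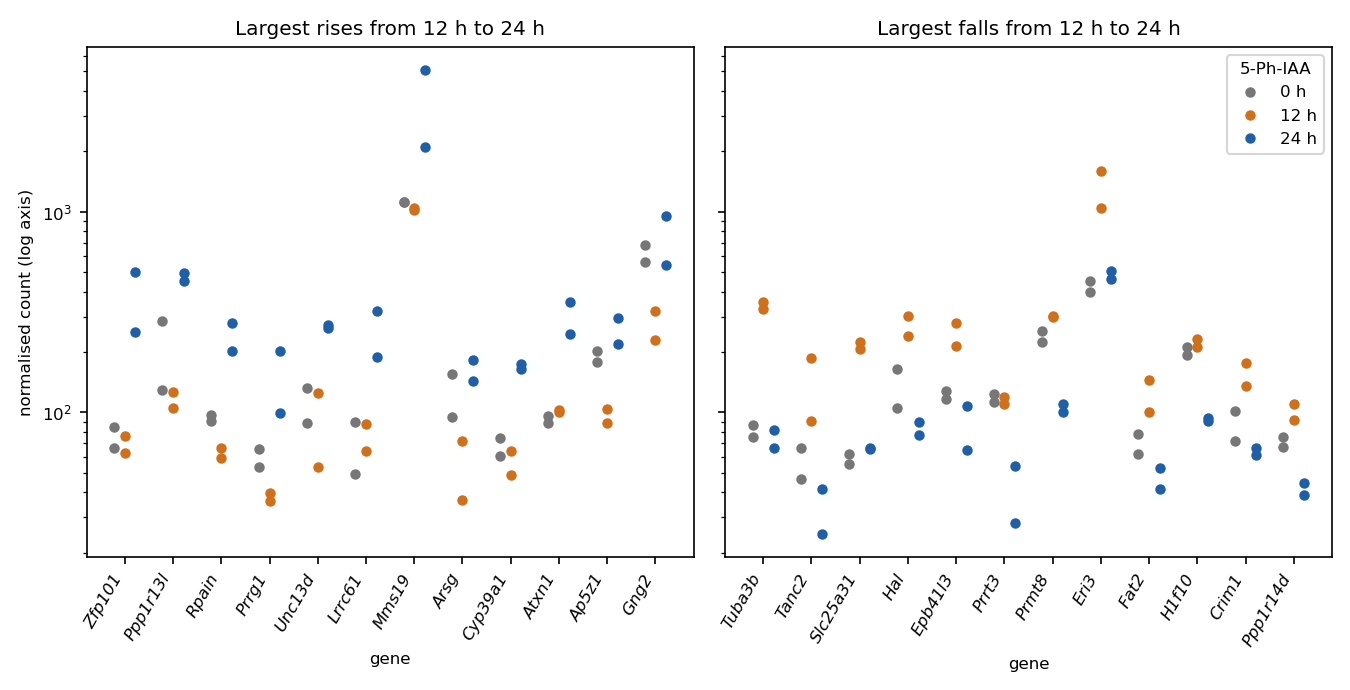
Normalised counts (y axis, log scale) of the 12 genes with the largest rises and the 12 with the largest falls between 12 h and 24 h (x axis), with 1 point per library and a colour per time. Tuba3b and Slc25a31 at 12 h stand apart from both other times, and the 2 libraries of Mms19 at 24 h, 5074 and 2099, differ from each other.

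The promoters of the genes at the 2 ends of this order, Zfp101 and Tuba3b, are given as the 250 bases before the start, 5′ to 3′, with capitals on the CCAAT box (CCAAT) and the CHR element (TTTGAA) in either orientation. The CCAAT box is in 40% and the CHR in 11.7% of all promoters of the table.
Zfp101 (chr17:33394638-33394887, minus strand): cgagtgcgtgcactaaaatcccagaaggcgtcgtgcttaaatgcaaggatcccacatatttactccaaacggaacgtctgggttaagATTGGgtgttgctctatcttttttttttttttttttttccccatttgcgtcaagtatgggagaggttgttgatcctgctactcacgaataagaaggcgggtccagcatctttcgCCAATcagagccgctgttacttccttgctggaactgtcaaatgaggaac
Tuba3b (chr6:145615713-145615962, plus strand): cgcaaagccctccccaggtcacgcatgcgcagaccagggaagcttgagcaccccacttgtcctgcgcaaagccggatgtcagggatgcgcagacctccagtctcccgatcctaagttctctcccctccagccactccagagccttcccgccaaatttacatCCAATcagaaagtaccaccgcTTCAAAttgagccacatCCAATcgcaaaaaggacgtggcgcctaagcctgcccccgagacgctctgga

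A separate contrast set the 12 h libraries against the mean of 0 h and 24 h, to find genes that left their level at 12 h and returned. Genes that kept their 0 h level until 12 h and moved only afterwards can also be called by this contrast. It shares the 12 h and 24 h libraries with the comparison above, so its values are given side by side and not as further support. By limma, 2048 genes differed (14.9%), 1078 higher at 12 h (7.85%) and 970 lower (7.06%). Both 12 h libraries lay outside the other 4 for 967 and 889 of them. The calls come from the same libraries, so this position adds no support, and its share over all tested genes was not counted. The 24 h level was within 0.5 (log2) of the 0 h level for 90.9% of those higher and 90.3% of those lower at 12 h, beside 84.3% of all tested genes. That margin is wider than the median departure at 12 h, 0.28 among those higher and 0.37 among those lower. These shares therefore do not show a return. At least 2-fold departures numbered 46 upward and 67 downward.

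Mael, a piRNA pathway gene of the germline, was among the clearest peaks, with 118 and 92.3 at 0 h, 277 and 282 at 12 h and 135 and 135 at 24 h, 1.23 ± 0.14 above the mean of the others (limma adjusted p = 0.0027). Tuba3b and Slc25a31 peaked by 2.13 ± 0.15 and 1.78 ± 0.15 (adjusted p = 0.00054 and 0.00094). Eri3 peaked by 1.5 ± 0.16 (adjusted p = 0.0023), a call lost without the mean-variance trend. Gpatch11, a G-patch domain gene, and Smarca2, the gene of the BRM remodelling ATPase, peaked by 1.20 ± 0.23 (adjusted p = 0.018) and 1.32 ± 0.33 (adjusted p = 0.042). Without the second 12 h library both lost the call, at adjusted p of 0.13 and 0.22. The clearest dip was that of Pknox2, a TALE homeobox gene, which was 138 and 119.6 at 0 h, 54.3 and 53.03 at 12 h and 124 and 118 at 24 h, 1.20 ± 0.15 below the mean of the others (adjusted p = 0.0040), a call kept in all 15 alternatives that apply to this contrast. Zfp799, a zinc finger gene, was 515 and 438 at 0 h, 199 and 166 at 12 h and 312 and 553 at 24 h, and its exons overlap Gm26693 on the opposite strand. Dpysl5, a collapsin response mediator gene, Atxn1l, a paralog of ataxin-1, Arsg and Gng2 also dipped. All of Zfp799, Dpysl5, Atxn1l, Arsg and Gng2 lost the call without at least 1 library, at adjusted p of 0.090 to 0.15.

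Germline genes went up at 12 h and came back. Of 27 tested genes on a list of germline genes, 9 fell from 12 h to 24 h and 2 rose. Against the mean of the other times, 10 were higher at 12 h and 1 lower. The list was written as genes silenced in stem cells, but not all were silent here. Their values summed to 20088 and 19169 at 0 h. The median difference from 12 h to 24 h was -0.46 on the log2 scale, against 0.001 for all genes, and the median from 0 h to 24 h was 0.11. Dazl, the RNA-binding regulator of germ cells, is the abundant member, with 3231 and 2995 at 0 h, 6457 and 6499 at 12 h and 3127 and 2938 at 24 h. Its 12 h libraries were 2.14-fold above the 24 h libraries (log2 difference -1.10 ± 0.05, adjusted p = 9.1e-05), and its 0 h and 24 h libraries overlap. Mov10l1, a helicase of piRNA production, went from 754 and 651 to 504 and 517 (adjusted p = 0.022), and Magea5, a cancer-testis gene of a multigene family, from 139.8 and 139 to 80.1 and 84.0 (adjusted p = 0.022). Sycp1, of the synaptonemal complex, Tuba3a and the ribosomal protein retrogene Rpl10l also fell, by 0.50, 0.61 and 0.20, but ended below their 0 h level. Rec8, the meiotic counterpart of RAD21, went the other way, from 104 and 96.1 to 207 and 239, with 215 and 137 at 0 h (1.14 ± 0.23, adjusted p = 0.017). Dpep3 also rose, by 0.55. Ddx4, Asz1 and Tex11 were called at 12 h against the other times but not between 12 h and 24 h. Of the 9 falls, 4 were called in every fit without 1 library and 6 without the mean-variance trend, and neither of the 2 rises was.

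**Figure D3:**
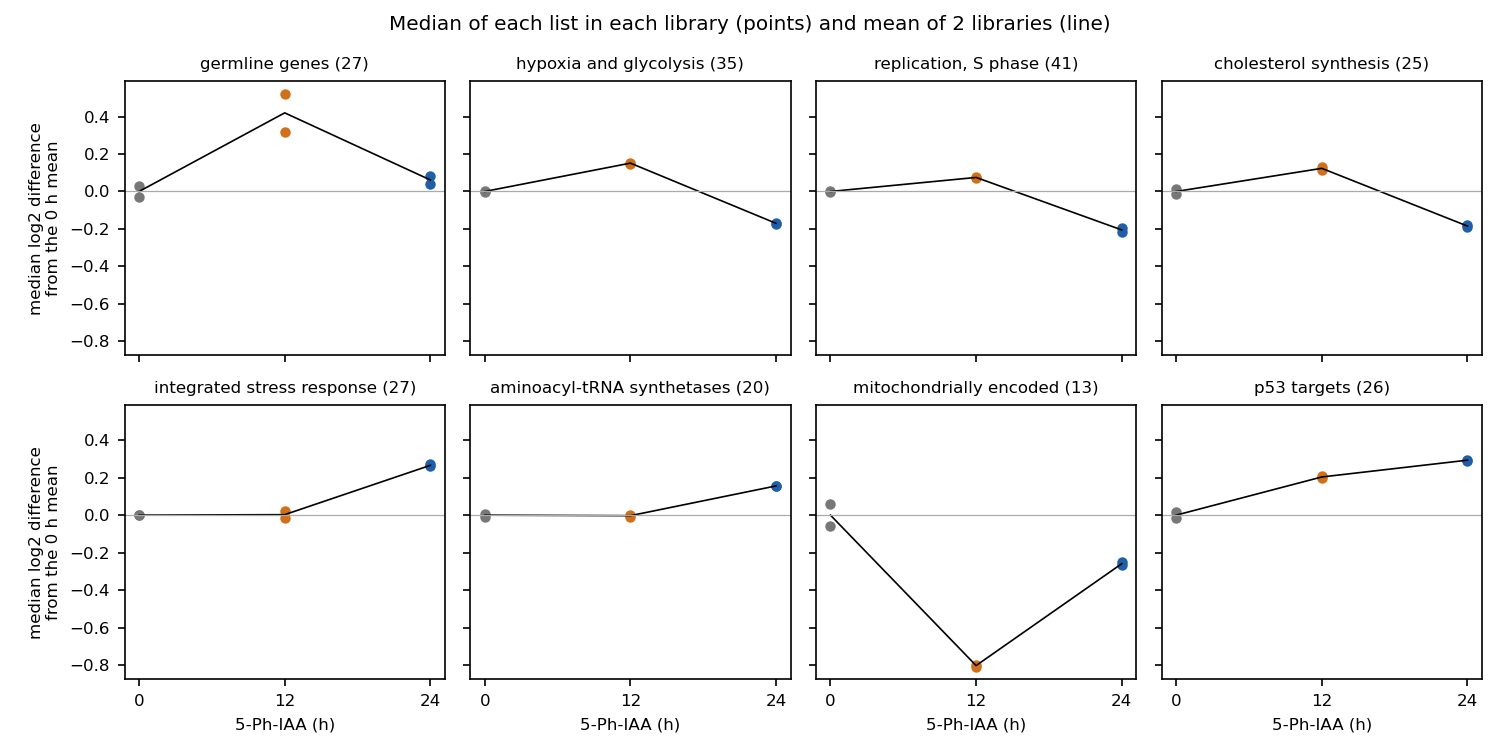
Median over the members of 8 gene lists of the log2 difference from the 0 h mean (y axis) in each library (points) by hours of 5-Ph-IAA (x axis), with a line through the mean of 2 libraries. Germline genes stood at 0.52 and 0.32 at 12 h and 0.08 and 0.04 at 24 h, and mitochondrially encoded genes at -0.81 and -0.80 at 12 h and -0.27 and -0.25 at 24 h.

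Most of the called glycolysis and hypoxia genes fell after 12 h. Of 35 tested, 22 fell and 1 rose, and the median was -0.40. Slc16a3, the lactate exporter MCT4, was 1554 and 1624 at 0 h, 2074 and 2123 at 12 h and 1140.1 and 997 at 24 h, a fall of 0.98 ± 0.07 (adjusted p = 0.00047) that ended below the start. Egln1 and Egln3, the oxygen-sensing prolyl hydroxylases that mark HIF for destruction, fell by 0.76 ± 0.07 and 0.73 ± 0.14 (adjusted p = 0.0011 and 0.016), and Higd1a, a mitochondrial hypoxia gene, by 0.79 ± 0.12 (adjusted p = 0.0076). The glucose transporter gene Slc2a1 went from 3903 and 3959 at 0 h through 3347 and 3443 to 2084 and 2051, lower at each time. The enolase gene Eno1 was 17870 and 17587 at 0 h, 21007 and 21235 at 12 h and 14494 and 14381 at 24 h, so both 12 h libraries lay above the others. Gapdh moved by -0.03 and did not pass, nor did Vegfa at -0.09. Hk1, the hexokinase that many tissues express, rose by 0.15 ± 0.03 (adjusted p = 0.017). Of the 22 falls, 15 were called in every fit without 1 library and 13 without the mean-variance trend.

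Among genes of DNA replication the changes were falls. Of 41 tested, 22 fell and 0 rose by limma (28 and 0 at an unadjusted p under 0.05), with a median of -0.27, and the median from 0 h to 24 h was -0.19. Cdc6, which loads the replicative helicase, was 1545 and 1496 at 0 h, 1641 and 1733 at 12 h and 1050.3 and 1040.1 at 24 h, a fall of 0.69 ± 0.06 (adjusted p = 0.00061). Cyclin E1 (Ccne1) fell by 0.63 ± 0.08 (adjusted p = 0.0038), thymidylate synthase (Tyms) by 0.54 ± 0.12 (adjusted p = 0.027) and the helicase subunit gene Mcm4 by 0.47 ± 0.03 (adjusted p = 0.00024). Of the 22, 14 were called in every fit without 1 library and 5 without the mean-variance trend. The mitotic list was split: of 42 genes, 15 fell and 4 rose. Of the 15 falls, 4 were called in every fit without 1 library and 1 without the mean-variance trend. Cdc20 and Fzr1, the 2 activators of the anaphase-promoting complex, both fell by 0.42 (adjusted p = 0.00056 and 0.015), and Cdk1 fell by 0.29 ± 0.05 (adjusted p = 0.0089). The kinetochore motor gene Cenpe rose by 0.45 ± 0.09 (adjusted p = 0.017), Hmmr by 0.27, Prc1 by 0.16 and Ect2 by 0.16. None of those 4 rises was called in every fit without 1 library. In DNA repair, Brca2 rose by 0.43 ± 0.06 (adjusted p = 0.0047), from 2998 and 2719 to 3759 and 3956, with 4673 and 4401 at 0 h. Rpa2 (replication protein A), Brca1 and Msh6 fell by 0.59, 0.26 and 0.24.

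Cholesterol synthesis and ribosome biogenesis also had falls and no called rise. Of 25 cholesterol genes, 16 fell and 0 rose by limma (19 and 0 at an unadjusted p under 0.05), with a median of -0.28, and 15 of the 17 with a promoter in the table hold a CCAAT box (88.2%). Of the 16, 10 were called in every fit without 1 library and 4 without the mean-variance trend. Mvd, of the mevalonate pathway, fell from 1303 and 1369 to 799.8 and 906, by 0.65 ± 0.08 (adjusted p = 0.0029). Acat2 and Idi1, which make sterol precursors, fell by 0.43 and 0.40. Of 32 ribosome biogenesis genes, 15 fell and 0 rose by limma (24 and 2 at an unadjusted p under 0.05), among them Nolc1 by 0.47 ± 0.04 (adjusted p = 0.0010) and the box C/D factor Nop56 by 0.47 ± 0.03 (adjusted p = 0.00025). Of these 15, 6 were called in every fit without 1 library and 2 without the trend. The 76 cytosolic ribosomal protein genes, by contrast, were split between 9 rises and 10 falls, with a median of -0.03, and after quantile normalisation the split was 16 rises and 7 falls. Of 20 oxidative stress genes, 10 fell and 0 rose by limma (11 and 0 at an unadjusted p under 0.05), led by Pgd, Gclc and Txnrd1 at -0.46, -0.42 and -0.37. Of these 10, 3 were called in every fit without 1 library and 2 without the trend.

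Amino acid and stress genes rose. Of 27 integrated stress response genes, 17 rose and 2 fell, with a median of 0.28, while the median from 0 h to 12 h was 0.01. Gpt2, a mitochondrial alanine transaminase, was 6385 and 6434 at 0 h, 6662 and 6638 at 12 h and 9113 and 9198 at 24 h, a rise of 0.46 ± 0.02 (adjusted p = 0.00017) with flat values before it. Nupr1, a stress-induced chromatin protein, had the same shape, with 2121 and 2087, then 2082 and 2050, then 2774 and 2959 (0.47 ± 0.05, adjusted p = 0.0015). Pycr1 and Aldh18a1, of proline synthesis, rose by 0.45 ± 0.05 and 0.61 ± 0.09 (adjusted p = 0.0028 and 0.0064). Asns, asparagine synthetase, rose from 16321 and 16740 to 20688 and 21192. Among regulators of the response, Atf4 rose by 0.18, from below its 0 h level, Trib3 by 0.28 and Ddit3 by 0.41, and Ddit3 was already 527 and 518 at 12 h against 355 and 339 at 0 h. The exceptions were Cebpb, a transcription factor gene, which fell by 1.83 ± 0.31 (adjusted p = 0.011) from 75.8 and 124 to 22.1 and 31.7, and Ddit4, an mTORC1 inhibitor that hypoxia also induces, which fell by 0.31 ± 0.04 (adjusted p = 0.0050). Of 20 cytosolic aminoacyl-tRNA synthetase genes, which charge tRNAs and are partly under ATF4, 10 rose and 2 fell. Cars rose by 0.50 ± 0.05 (adjusted p = 0.0014), Sars by 0.43, Nars by 0.34 and Lars by 0.32, and Farsa and Rars fell by 0.30 and 0.23. In fits without 1 library, 10 of the 17 stress genes and 6 of the 10 synthetases were called every time, and without the mean-variance trend 3 and 1 were.

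The chaperone branch went the opposite way. Of 24 unfolded protein response and heat shock genes, 12 fell and 2 rose. Hspa5, the endoplasmic reticulum chaperone BiP, was 5656 and 5658 at 0 h, 7192 and 7359 at 12 h and 4833 and 4726 at 24 h, a fall of 0.61 ± 0.03 (adjusted p = 0.00010). Hspb1 and Hsph1, of the heat shock response, fell by 0.58 ± 0.03 and 0.76 ± 0.15 (adjusted p = 0.00010 and 0.016), and Hspa1a fell by 1.47 from a level under 50. Canx and Hsp90b1 rose by 0.12 and 0.09. Only 4 of the 12 falls were called in every fit without 1 library.

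**Figure D4:**
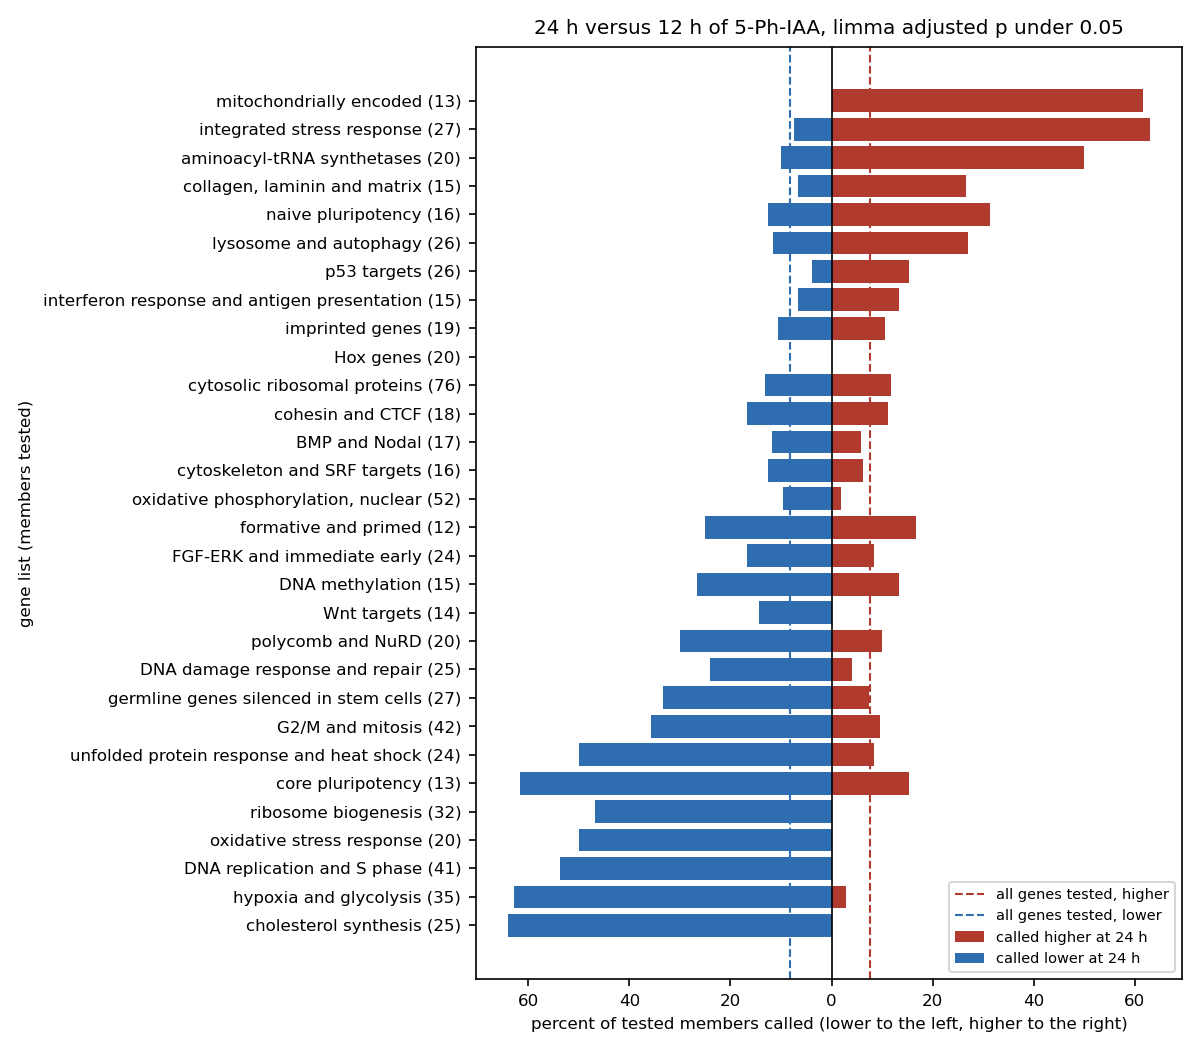
Percent of the tested members of each gene list (y axis, number tested in brackets) called higher (right) or lower (left) at 24 h than at 12 h (x axis), with dashed lines at the shares of all genes, 7.67% and 8.26%. Stress response, synthetase and mitochondrially encoded genes extend to the right, and cholesterol, glycolysis and replication genes to the left. The dashed lines are not matched for the level of the genes.

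Transcripts of the mitochondrial genome fell at 12 h and partly came back. The 15 mitochondrial genes listed held 2.02% and 2.00% of the normalised counts at 0 h, 1.15% and 1.15% at 12 h and 1.7% and 1.75% at 24 h, with no overlap between times. Of the 13 protein-coding ones, 8 rose between 12 h and 24 h and 0 fell by limma (10 and 0 at an unadjusted p under 0.05), with a median of 0.60, and the median from 0 h to 24 h was -0.26. mt-Co1, a subunit of cytochrome oxidase, was 168900 and 171810 at 0 h, 91670 and 95653 at 12 h and 146620 and 144940 at 24 h (0.64 ± 0.02, adjusted p = 4.2e-05). mt-Nd4 and mt-Nd6, of complex I, rose by 0.68 ± 0.04 and 0.64 ± 0.06 (adjusted p = 0.00024 and 0.0010). Of the 8 rises, 7 were called in every fit without 1 library and 5 without the mean-variance trend. Libraries were made from purified mRNA, and the part of RNA capture or quality in this was not tested. The 52 nuclear genes of oxidative phosphorylation hardly moved, with 1 rise, 5 falls and a median of -0.05.

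Genes of stem cell identity moved in both directions. Of 13 core pluripotency genes, 8 fell and 2 rose, and 3 of the falls were called in every fit without 1 library and 3 without the mean-variance trend. Dppa2, a factor that primes bivalent promoters, was 1089 and 1031 at 0 h, 1019.6 and 1129 at 12 h and 569.6 and 578 at 24 h, a fall of 0.90 ± 0.08 (adjusted p = 0.00073). Trim28, a corepressor, fell by 0.47 ± 0.02 (adjusted p = 0.00010), Utf1 by 0.39 and L1td1 by 0.37, while Sox2 rose by 0.21 ± 0.03 (adjusted p = 0.0048) to its 0 h level. Of 16 naive pluripotency genes, 5 rose and 2 fell, and 2 of the rises and 0 of the falls were called in every fit without 1 library. Dppa3, which protects the maternal genome from demethylation, rose from 170.1 and 175 to 322 and 337, above its 0 h values of 236 and 222, by 0.93 ± 0.11 (adjusted p = 0.0032). Prdm14 and Tet2 fell by 0.38 and 0.21. Of 12 formative and primed genes, 2 rose and 3 fell: Otx2 rose by 0.33, Zic2 fell by 0.67, and Pou3f1 fell by 2.06 at levels under 20. None of the formative and primed genes was called without the mean-variance trend. Lefty2, a Nodal antagonist, was low at 12 h and back at 24 h, with 1716 and 1829, then 846 and 905, then 1719.9 and 1793 (1.00 ± 0.06, adjusted p = 0.00025). The WNT pathway genes Tcf7l1 and Ccnd1 fell by 0.72 ± 0.06 and 0.61 ± 0.04 (adjusted p = 0.00056 and 0.00031). Ier3, an immediate early gene, fell by 1.17 ± 0.14 (adjusted p = 0.0031), and Klf6 rose by 0.58 ± 0.06 (adjusted p = 0.0014).

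The other lists are given by their counts, to be read beside the 7.67% of all genes that rose and the 8.26% that fell. Of 26 p53 targets, 4 rose and 1 fell between 12 h and 24 h, and the median was 0.02, while the median above 0 h was 0.21 at 12 h and 0.28 at 24 h. Trp53inp1 rose by 0.36 ± 0.03 (adjusted p = 0.00076), with 4551 and 4520, 4563 and 4592, then 5985 and 5806. Of 26 lysosome and autophagy genes, 7 rose and 3 fell, and 3 of the rises and 1 of the falls were called in every fit without 1 library. The lysosomal membrane protein gene Lamp2 rose by 0.44, and the autophagy gene Gabarapl2 fell by 0.54 ± 0.04 (adjusted p = 0.00045). Of 15 DNA methylation genes, 2 rose and 4 fell: the maintenance methyltransferase Dnmt1 and its recruiter Uhrf1 both fell by 0.29 (adjusted p = 0.00074 and 0.00051), and Tet1 fell by 0.54 ± 0.06 (adjusted p = 0.0023). Of these 4 falls, 3 were called in every fit without 1 library and 0 without the mean-variance trend. Of 20 polycomb and NuRD genes, 2 rose and 6 fell, 3 of the falls in every fit without 1 library and 0 without the trend, with Chd4 at -0.33 ± 0.04 (adjusted p = 0.0022). Of 19 imprinted genes, Rian and Igf2r rose by 0.41 and 0.31 and Ndn and Mest fell by 0.58 and 0.42. Among lineage and signalling genes, Lama1 rose among 9 primitive endoderm genes, Krt18 rose and Tfap2c fell among 7 trophoblast genes, and Ncam1 rose and Tubb3 fell among 6 neural genes. Of 15 interferon genes 2 rose (H2-K1 and Bst2, by 0.68 and 0.55) and 1 fell, of 15 matrix genes 4 rose and 1 fell (1 and 0 in every fit without 1 library), of 16 cytoskeleton genes 1 rose and 2 fell, and of 7 aryl hydrocarbon receptor targets 2 fell and 0 rose, also at an unadjusted p under 0.05. Without the mean-variance trend, Lama1, Tfap2c, Ncam1, Tubb3, H2-K1 and Bst2 were not called. Of 24 FGF-ERK genes 2 rose and 4 fell, and of 17 BMP and Nodal genes 1 rose and 2 fell. Of 14 WNT targets 0 rose and 2 fell (0 and 4 at an unadjusted p under 0.05). None of 20 Hox genes, 7 clustered protocadherins, 2 mesoderm genes, 3 fibroblast genes or 9 genes of the 2-cell-like state was called by limma. At an unadjusted p under 0.05, 2 Hox genes were lower, 1 fibroblast gene was higher and 2 genes of the 2-cell-like state were lower. The last list had a median of -0.63, with summed values of 227 and 223 at 12 h and 144 and 148 at 24 h.

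In CTCF AID cells over the same 12 h interval, with another auxin at another dose, 20 of 13699 genes were called (0.146%). Few calls do not show absence of change, since a call also depends on the spread between libraries. The 24 h libraries there lay entirely above the 12 h libraries for 22.7% of tested genes and entirely below for 21.8%. The table of these cells breaks off inside a gene name on its last line, and genes after that point were not analysed here. The tables were normalised separately and share no library, so the values stand side by side and the differences between them were not tested. Of 2167 genes called in RAD21 AID cells with a value in both tables, 1300 had the same sign in CTCF AID cells (60%, exact binomial 95% interval 57.9 to 62.1, for counting error only, with genes not independent). Across these genes r was 0.08, and across all 13016 genes it was 0.05. The median difference in CTCF AID cells was 0.03 among those rising and -0.03 among those falling in RAD21 AID cells.

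Some groups pointed in opposite directions in the 2 kinds of cells. Of 26 stress response genes with both values, 21 were above 0 in RAD21 AID cells and 25 were below 0 in CTCF AID cells, where the median was -0.32. In CTCF AID cells the 24 h libraries lay entirely below the 12 h libraries for 23 of the 26, against 21.8% of all genes, and entirely above for 1, against 22.7%. Nupr1 fell there from 968 and 896 to 576 and 549.5, by 0.73 ± 0.08 (limma adjusted p = 0.034), Aldh18a1 fell by 0.43 ± 0.05 (adjusted p = 0.049), Psat1 by 0.31 ± 0.04 and Cars by 0.39 ± 0.05 (adjusted p = 0.040 for both). Glycolysis and hypoxia genes showed the reverse, with 30 of 34 below 0 in RAD21 AID cells and 30 of 34 above 0 in CTCF AID cells, where none was called by limma, 22 of 34 had 24 h libraries entirely above the 12 h libraries, and the median was 0.14. Replication genes pointed down in both, with 37 of 41 below 0 in each and medians of -0.27 and -0.11. Germline genes had medians of -0.46 and -0.19. Dazl in CTCF AID cells went from 2385 and 2154 to 1793 and 1728, having started at 2617 and 2600, with no peak at 12 h. Dppa3 rose in both, in CTCF AID cells from 415 and 434 to 768 and 787 (0.87 ± 0.10, adjusted p = 0.034).

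**Figure D5:**
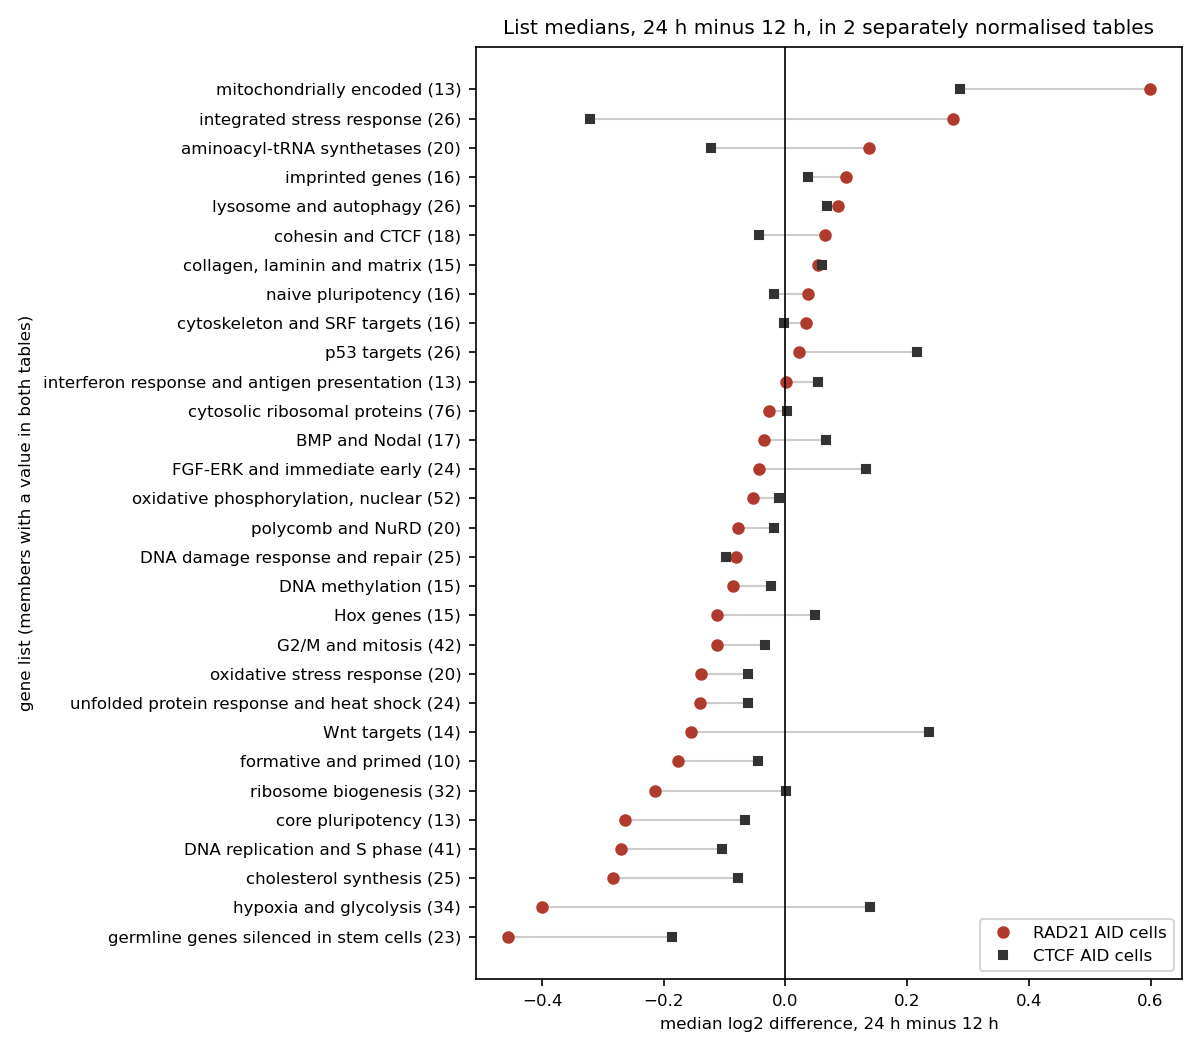
Median log2 difference of 24 h minus 12 h (x axis) of each gene list (y axis, members with a value in both tables in brackets) in RAD21 AID cells (circles) and CTCF AID cells (squares). The integrated stress response stands at 0.28 and -0.32, and glycolysis and hypoxia genes at -0.40 and 0.14.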

How the data were processed

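Polyadenylated RNA of 6 RAD21 AID libraries and 6 CTCF AID libraries was used. The values are the normalised counts the authors deposited, a signal and not raw counts. Per the submitters' processing notes, Trim Galore, Bowtie2, STAR, RSEM, DESeq2 and mm10 were involved, with no role or order given. Between 39.8% and 52.5% of low values came out as whole multiples of 1 read (tolerance 0.05), so counts were not recovered and no count test was run. A gene was kept if its values averaged 10 or more over 6 libraries. log2(value + 1) was fitted with limma 3.58.1 in R 4.3.3 over all 3 times, with a mean-variance trend, and p-values were adjusted by Benjamini-Hochberg over 13738 genes at 0.05. Fold changes on that scale understate low genes. The code was tested on simulated data. Members, the 38 gene lists and the tests were chosen with earlier results of these data known. Named genes were the 12 largest changes each way and the 6 largest departures each way at 12 h of called genes averaging 100 or more in the higher group, with libraries apart, the cohesin genes, and up to 4 called members per list and direction. Other list members named (Slc2a1, Eno1, Gapdh, Vegfa, Atf4, Trib3, Ddit3, Asns, Gars, Psat1, Ddx4, Asz1, Tex11 and 5 germline falls) were chosen after their values were seen. Of the 7 promoters the rule takes, 2 are printed, upstream part only. Whether replicate numbers pair the libraries is not stated. Deviations of same-numbered libraries correlated at -0.03, 0.01 and -0.01, which shows no shared shift but cannot tell whether they were prepared together. A few list members are not reported here by name.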

Additional observations from a re-analysis of the deposited data

Results flagged for a closer look

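The genes given here come from those the naming rule takes, at most 4 per gene list and direction, so other list members can show the same pattern. In each of them all 24 h libraries lay on one side of the 12 h libraries in RAD21 AID cells and on the other side in CTCF AID cells. Among all tested genes in CTCF AID cells, the 24 h libraries lay entirely above for 22.7% and entirely below for 21.8%. Such positions are therefore frequent in any set of genes. The difference between the cells was not tested. The values are log2 differences of 24 h minus 12 h in CTCF AID cells.

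Rising in RAD21 AID cells and pointing down in CTCF AID cells were the stress and synthetase genes Nupr1 (-0.73), Aldh18a1 (-0.43), Cars (-0.39), Gpt2 (-0.31), Sars (-0.26), Nars (-0.25), Lars (-0.16) and Sesn2 (-0.053). Brca2 (-0.37) and Cenpe (-0.24), of repair and mitosis, and the cohesin gene Smc1a (-0.11) shared this pattern. So did the pluripotency-related genes Fgf4 (-0.12), Dppa5a (-0.076), Etv5 (-0.072) and Nr5a2 (-0.067), with the ribosomal protein gene Rpl12 (-0.11).

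Falling in RAD21 AID cells and pointing up in CTCF AID cells were the hypoxia genes Slc16a3 (1.05), Egln3 (0.46), Ddit4 (0.35) and Egln1 (0.24). Among the largest falls, Crim1 stood at 1.00 and Hal at 0.081. The others were Ier3 (0.62), Ndn (0.49), Plk2 (0.37), Pttg1 (0.22), Prdm14 (0.17), Sqstm1 (0.13), Tiparp (0.12), Tfeb (0.11), Tfap2c (0.10), Rpl38 (0.069), Nid1 (0.059), Sdhd (0.045) and Rbbp7 (0.035).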

How the results depend on the processing

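Of 2189 genes called between 12 h and 24 h, 463 were called without the mean-variance trend (245 higher, 218 lower) and 166 with a 2-fold minimum (93 higher, 73 lower, so 56.0% were higher against 48.1%). Leaving out 1 library gave 892 to 1919 calls, 405 to 913 higher and 487 to 1006 lower. The low ends came without either 12 h library (912 and 892) or either 24 h library (1092 and 1137). Of 2048 genes called at 12 h against the other times, 246 were called without the trend (93 higher, 153 lower) and 113 with a 2-fold minimum (46 higher, 67 lower). The higher share was 52.6%, 37.8% and 40.7% in these 3 settings. Leaving out 1 library gave 615 to 1445 calls, 324 to 745 higher and 291 to 700 lower, fewest without the second 12 h library. The 1052 genes whose 0 h level was nearer 24 h became 214 without the trend (46.2%) and 452 to 905 without 1 library (43.2% to 51.6%). The cause of these shifts was not tested. The share with the same sign in CTCF AID cells was 60.4% with a minimum mean of 100. The other filters, pseudocounts and rescalings kept the counts within 1.5 times. With the replicate block, 1865 genes were called between 12 h and 24 h, 892 of them rises and 973 falls. At 12 h against the other times, 1633 genes were called. Whether the replicate numbers pair the libraries is not stated. Of 194 results on named genes, 133 lost the call under at least 1 alternative, most often without the trend (124) or without a 12 h library (79 and 80). Stag2 gained a call without the first 12 h library and Nipbl after quantile normalisation. Of the genes that changed sign, Fn1 was called, and went from 0.05 to 0.00 after quantile normalisation. Leaving out 1 library gave Rad21 -0.0014 to 0.041 (also -0.00056), Smc3 -0.0032 to 0.052, Stag1 -0.0073 to 0.098, Stag2 -0.13 to 0.32, Pds5a -0.00063 to 0.022, Hdac8 -0.072 to 0.30, Sgo1 -0.081 to 0.31 and Espl1 -0.17 to 0.20. Raw depth is unknown from these files, so no counting error is given.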
